A study of Mus musculus with 17 samples.

Results

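Genes were sought whose level at birth in ganglia with 1 mutated copy of Alk did not lie on the line between ganglia with none and with 2. The comparison set the 4 heterozygous arrays (Het) against the midpoint of the wild-type mean (Wt, 4 arrays) and the homozygous mean (Hom, 4 arrays), with the 12 P0 arrays out of the 17 of the series. Of 17306 probe sets, each standing for 1 gene, 9675 exceeded a log2 level of 4 in at least 2 of these 12 arrays and were tested. A difference of 0 from the midpoint is what a gene strictly proportional to mutation dose on the log2 scale would give. A gene whose unlogged level changed in even steps with dose would lie above this midpoint, the more so the farther apart Wt and Hom are.

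The mice were C57BL/6 knock-in animals carrying the F1178L substitution of Alk from the germline in every cell, on 1 allele (Het) or on both (Hom), with Wt animals as controls, and the sympathetic ganglia were taken at P0 (birth) or, for 3 Wt and 2 Het samples, at P18. The tissue was whole superior cervical and stellate ganglia, hybridised to Affymetrix mouse expression arrays. The labels leave unsaid whether samples stand for different animals, and the p-values therefore cover the spread among samples, which may be technical. At P0 the sample numbers run in blocks by genotype, so a litter or handling batch and the genotype cannot be told apart. Markers of sympathetic neurons were at a log2 level of at least 4.31 in every P0 array. Since whole ganglia were used, fewer cells of a type and less RNA per cell cannot be told apart for any gene below.

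The product of Alk is a receptor kinase on developing neurons, and substitutions at this residue activate it without ligand. In the sympathetic chain it acts on neuroblasts, the dividing precursors that already make noradrenergic enzymes, and its signal runs through the same Ras, ERK and PI3K routes as the neurotrophin and Ret receptors. A heterozygote carries normal and mutated receptor together, and whether this bears on its transcript levels was not tested.

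In this contrast, 24 genes were called at an adjusted p under 0.05 (limma, Benjamini-Hochberg over all 9675 genes, 0.248% of those tested). Of these, 16 were higher in Het (0.165%) and 8 were lower (0.0827%). After centring each array on its median, 17 genes were called, of which 52.9% were higher, against 66.7% without centring. Leaving out 1 array at a time gave 7 genes (without Het replicate 6) to 110 (without Hom replicate 10). At an adjusted p under 0.1, a limit added after seeing the data, 142 genes passed (1.47%), 75 higher (0.775%) and 67 lower (0.693%). Before adjustment, 1657 had a p under 0.05 (17.1%), 953 higher (9.85%) and 704 lower (7.28%). The departures took 3 forms. For 6 genes Het differed from both other genotypes, since the contrasts of Het with Wt and of Het with Hom were each called (the glypican Gpc2, the nociceptin receptor Oprl1 and the glycogen phosphorylase Pygl were higher, and the transcription factor Klf9, the vesicle GTPase Rab27b and the mast cell protease Cma1 were lower). For 9 genes, all higher in Het, only the difference from Wt was called, and for the other 9 only the difference from Hom. The called pair contrasts covered 164 genes for Het against Wt (1.7%) and 405 for Het against Hom (4.19%), beside 621 for Hom against Wt (6.42%), and they share the Het arrays.

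**Figure D1:**
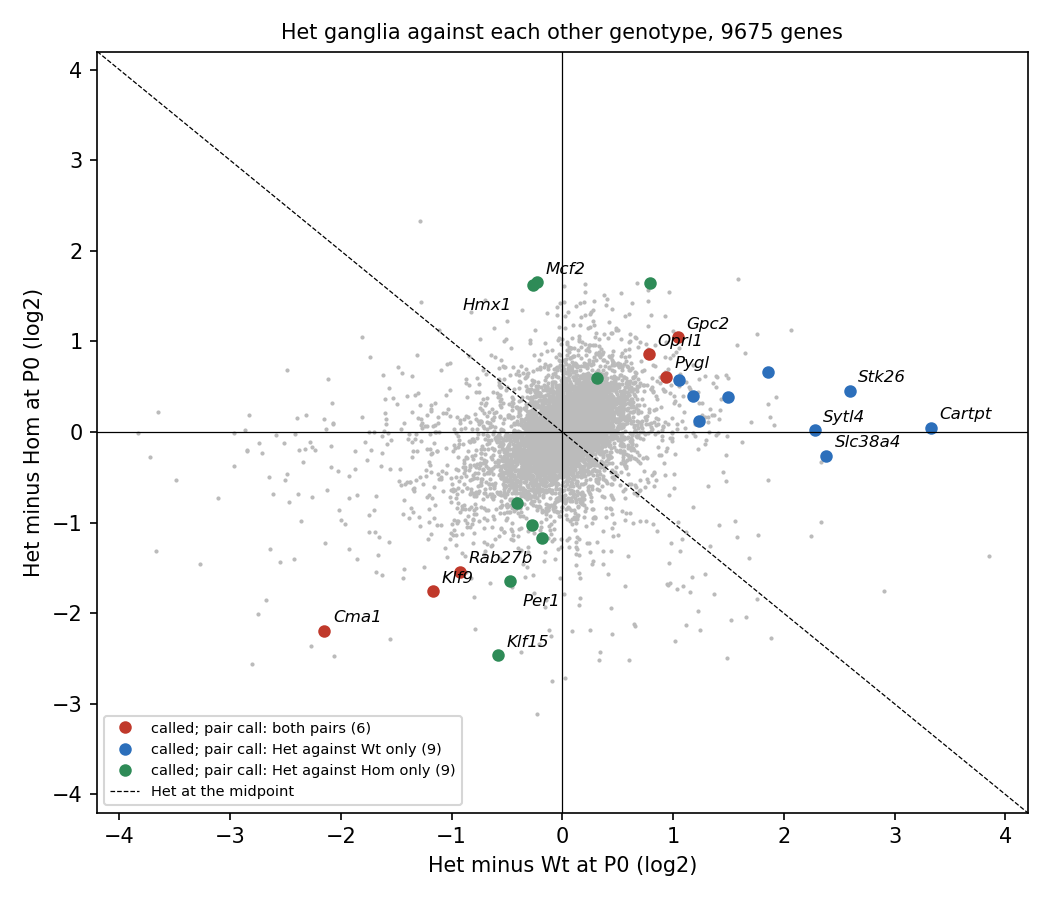
Each point is 1 of the 9675 genes, with the Het minus Wt difference on the horizontal axis and the Het minus Hom difference on the vertical axis, both in log2 units at P0. The dashed line marks Het at the midpoint and 1 gene lies outside the axes. Coloured points are the 24 called genes by pair call (6 both, 9 against Wt only, 9 against Hom only), and those with Het beyond both other means lie in the upper right and lower left quadrants.

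A stricter rule asked that Het lie beyond both other genotypes by a single adjusted test, taking the larger of the pair p-values for each gene. With limma no gene passed it at an adjusted p under 0.05, and the smallest adjusted p was 0.11, for Gpc2. At an unadjusted p under 0.05, 410 genes met that rule (4.24%), 228 with Het highest (2.36%) and 182 with Het lowest (1.88%). The pair tests without moderation also gave 0 genes, whereas weighting arrays by their quality gave 4, which were Gpc2, Pygl, Klf9 and Rab27b. By order alone, the Het mean lay above both other means in 3750 genes (38.8%), below both in 2751 (28.4%) and between them in 3174 (32.8%). All 4 Het arrays lay above the 8 others in 195 genes (2.02%) and below them in 99 (1.02%), 294 in all (3.04%). The 24 called genes were picked by a contrast that uses the same arrays, and 21 of them had a Het mean beyond both others and 10 had arrays fully apart.

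The Het arrays resembled one another more closely than the arrays of either other genotype did. The median SD of a gene was 0.128 in Het, 0.218 in Wt and 0.259 in Hom, and the mean correlation of an array with the rest of its group ran from 0.982 to 0.989 in Het, 0.955 to 0.970 in Wt and 0.946 to 0.967 in Hom. The fit uses 1 spread for the 3 genotypes, and weights set by group raised the count of called genes from 24 to 379. The median over all genes of the difference from the midpoint was 0.03 log2 units.

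Gpc2 encodes glypican-2, a heparan sulfate proteoglycan on the surface of immature neurons and their growing axons. Its log2 level was 8.48, 8.66, 8.59 and 8.55 in the Het arrays, 7.72, 7.87, 7.23 and 7.28 in Wt, and 7.42, 7.75, 7.53 and 7.39 in Hom. Wt and Hom overlapped throughout, with means of 7.53 and 7.52, and every Het array lay above all 8. Gpc2 stood 1.04 ± 0.13 (SE) above the midpoint, 2.06-fold on a linear scale (adjusted p = 0.00414, limma).

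Oprl1, the receptor for the inhibitory neuropeptide nociceptin, had the same shape at a lower signal. Het levels were 6.03, 5.98, 5.97 and 6.00, against 5.54, 5.37, 4.78 and 5.17 in Wt and 5.27, 5.03, 5.35 and 4.90 in Hom. The Het arrays were close together and above all others, and the difference from the midpoint was 0.82 ± 0.14 (adjusted p = 0.0495). The call was kept in 4 of the 12 fits that left out 1 array. Pygl, the liver form of the enzyme that releases glucose units from glycogen, read 9.54, 9.72, 9.60 and 9.66 in Het, 8.95, 8.56, 8.67 and 8.60 in Wt and 8.76, 9.27, 8.87 and 9.18 in Hom. It was 0.78 ± 0.11 above the midpoint (adjusted p = 0.0109), again with no overlap between Het and the others.

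For 3 more genes the 4 Het arrays were highest, but only the difference from Wt was called. Stk26, a kinase of the germinal centre kinase family also known as Mst4, read 7.03, 7.19, 7.05 and 7.15 in Het, 6.62, 6.63, 6.49 and 6.86 in Hom and 5.15, 4.65, 4.09 and 4.13 in Wt. Hom thus lay far above Wt (2.14 ± 0.21, adjusted p = 5.61e-05) and just under Het, and Het stood 1.53 ± 0.18 above the midpoint (adjusted p = 0.00414). Psd2, an exchange factor for the small GTPase Arf6, had Het means of 7.77 ± 0.11 (SD, n = 4) against 6.71 ± 0.38 in Wt and 7.20 ± 0.15 in Hom, and differed from the midpoint by 0.81 ± 0.15 (adjusted p = 0.0495). Spc24, a subunit of the kinetochore complex that holds microtubules, had means of 5.54 ± 0.28 in Het, 3.69 ± 0.37 in Wt and 4.88 ± 0.38 in Hom (1.26 ± 0.20, adjusted p = 0.0353).

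**Figure D2:**
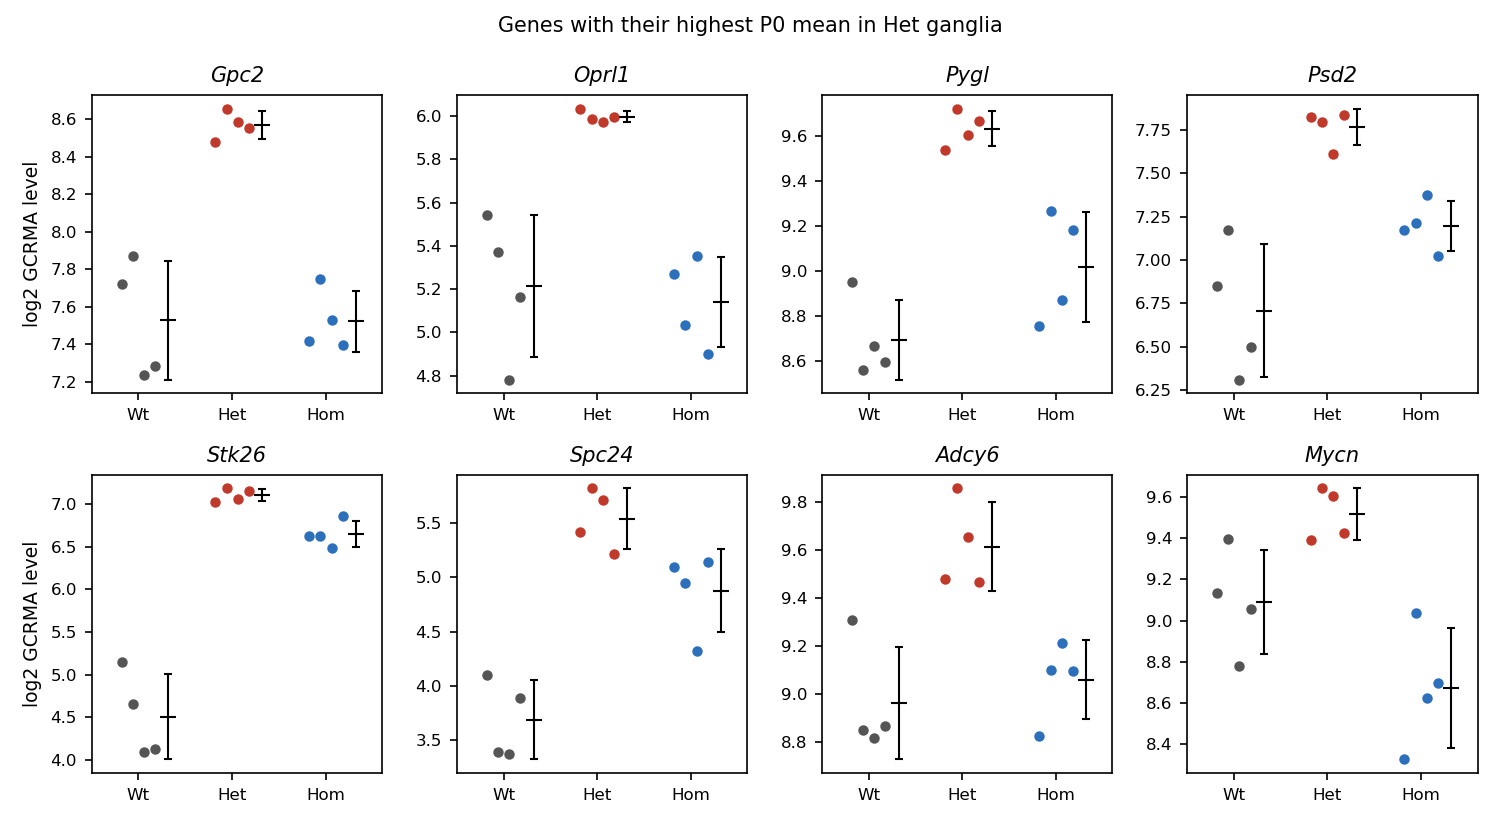
Log2 GCRMA level of 8 genes with the highest mean in Het, 1 point per P0 array (4 per genotype), with the mean and SD beside each group. Axes do not start at 0 and differ by gene. Gpc2, Oprl1, Pygl, Psd2, Stk26 and Spc24 were called and their Het arrays lie above all others, whereas Adcy6 (adjusted p = 0.0593) and Mycn (adjusted p = 0.0740) were not called.

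The next genes on the high side by the naming rule were not called, and they are given as values. The lowest p-values were those of Shcbp1, Adgrb3, Zbtb12 and Hnrnpab (adjusted p = 0.0543 for each), followed by Adcy6 and Zcchc2 (0.0593). Zbtb12, a zinc finger gene, had the widest gap, with Het at 5.15 to 5.90, Wt at 2.81 to 4.38 and Hom at 3.82 to 4.86. Adcy6, an adenylyl cyclase, read 9.47 to 9.86 in Het, 8.82 to 9.31 in Wt and 8.83 to 9.21 in Hom, and Adgrb3, an adhesion receptor of synapses, 11.38 to 11.51, 10.82 to 11.16 and 10.82 to 11.06. In these 3 genes no Het array overlapped another genotype. Shcbp1, a protein of the dividing cell, was different, since Het (8.25) and Hom (8.32) had nearly equal means above Wt (7.27).

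The genes lowest in Het were led by a transcription factor, Klf9, a Krüppel-like repressor that glucocorticoid and thyroid hormones induce in many cell types. It read 6.20, 6.12, 6.47 and 6.53 in the Het arrays, 7.33, 7.33, 7.69 and 7.65 in Wt and 8.35, 8.52, 7.76 and 7.71 in Hom. All Het arrays lay below all others, and every Hom array lay above every Wt array. The difference from the midpoint was -1.46 ± 0.17, 2.76-fold (adjusted p = 0.00407), with Het under Wt by 1.17 (adjusted p = 0.0103) and under Hom by 1.75 (adjusted p = 0.000902). Hom against Wt was not called (0.58, adjusted p = 0.103).

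Per1, a repressor of the circadian clock that glucocorticoids also induce, and Klf15, a Krüppel-like factor of metabolic genes with the same hormone response, had a related order. Per1 read 5.63, 5.89, 5.88 and 6.04 in Het, 6.01, 6.30, 6.36 and 6.64 in Wt and 7.67, 7.45, 7.54 and 7.34 in Hom. Het and Wt met at 1 array, Hom stood clear above both, and the difference from the midpoint was -1.05 ± 0.13 (adjusted p = 0.00414). Klf15 read 2.69, 3.35, 2.66 and 2.79 in Het, 2.89, 3.29, 3.94 and 3.68 in Wt and 5.61, 5.86, 4.69 and 5.17 in Hom (-1.52 ± 0.26, adjusted p = 0.0472). It passed the level filter only through its Hom arrays, and Het and Wt overlapped near the bottom of the array's range. For both genes the difference from Hom was called and that from Wt was not (adjusted p = 0.145 for Per1 and 0.380 for Klf15). Klf15 lay outside the naming rule and was chosen after its values were seen.

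The promoter sequences of these 3 genes are shown because they are transcription regulators that were lowest in Het and highest in Hom. They are the 250 bases before the annotated start (RefSeq, GRCm38.p6, plus strand, 5′ to 3′), and all 3 genes had an entry. Capitals mark the E-box CACGTG, the site that clock factors of the basic helix-loop-helix type can bind.
Klf9, chr19:23140976-23141225: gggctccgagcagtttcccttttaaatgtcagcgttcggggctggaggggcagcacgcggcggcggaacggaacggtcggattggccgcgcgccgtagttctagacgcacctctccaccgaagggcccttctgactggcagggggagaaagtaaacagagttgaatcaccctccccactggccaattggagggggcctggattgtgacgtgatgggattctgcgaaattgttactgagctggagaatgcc
Per1, first of 2 annotated starts, chr11:69098699-69098948: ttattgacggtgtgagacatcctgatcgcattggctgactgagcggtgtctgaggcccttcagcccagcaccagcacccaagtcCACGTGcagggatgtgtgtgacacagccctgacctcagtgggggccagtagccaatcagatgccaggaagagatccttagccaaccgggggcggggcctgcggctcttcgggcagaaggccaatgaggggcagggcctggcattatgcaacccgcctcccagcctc
Klf15, chr6:90462326-90462575: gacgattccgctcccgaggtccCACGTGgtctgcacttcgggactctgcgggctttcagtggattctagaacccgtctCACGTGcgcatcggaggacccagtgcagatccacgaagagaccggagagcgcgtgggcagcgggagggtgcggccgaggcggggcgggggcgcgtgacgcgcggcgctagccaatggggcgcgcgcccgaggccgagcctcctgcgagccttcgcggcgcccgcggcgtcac
Searched on both strands, CACGTG occurred 2 times in the Klf15 window, 1 time in this Per1 window and not in the Klf9 window or in that of the second Per1 start, and in 6.02% of all 32851 such windows. The palindromic glucocorticoid element, AGAACA and TGTTCT parted by 3 bases of any kind, was in none of the windows of these genes and in 0.00913% of all, and its left arm alone, in 16.1% of all windows, was in none of them either. These matches describe letters only, and no binding was measured.

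The other members of the hormone and clock lists, which were chosen with earlier results of these data known, did not all share this order. Of 12 glucocorticoid response genes tested, 1 was called (Klf9), 5 were lower in Het at an unadjusted p under 0.05 and 0 higher, against 7.28% lower and 9.85% higher among all genes. The median difference of the list was -0.29, beside 0.03 over all genes. Nfkbia, an inhibitor of NF-kappaB, was at 9.01 to 9.38 in Het, 9.36 to 9.70 in Wt and 9.65 to 10.29 in Hom (-0.51 ± 0.11, adjusted p = 0.0871), while Pdk4, a kinase that turns off pyruvate oxidation, had the widest difference (-2.68 ± 0.90, adjusted p = 0.181) with 1 Hom array at 11.13 and the others at 5.13 to 6.78. Tsc22d3 and Fkbp5, classical targets of the same receptor, had differences of 0.26 and 0.13, neither called. Of 9 clock genes tested Per1 alone was called, and the list's median was -0.04.

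**Figure D3:**
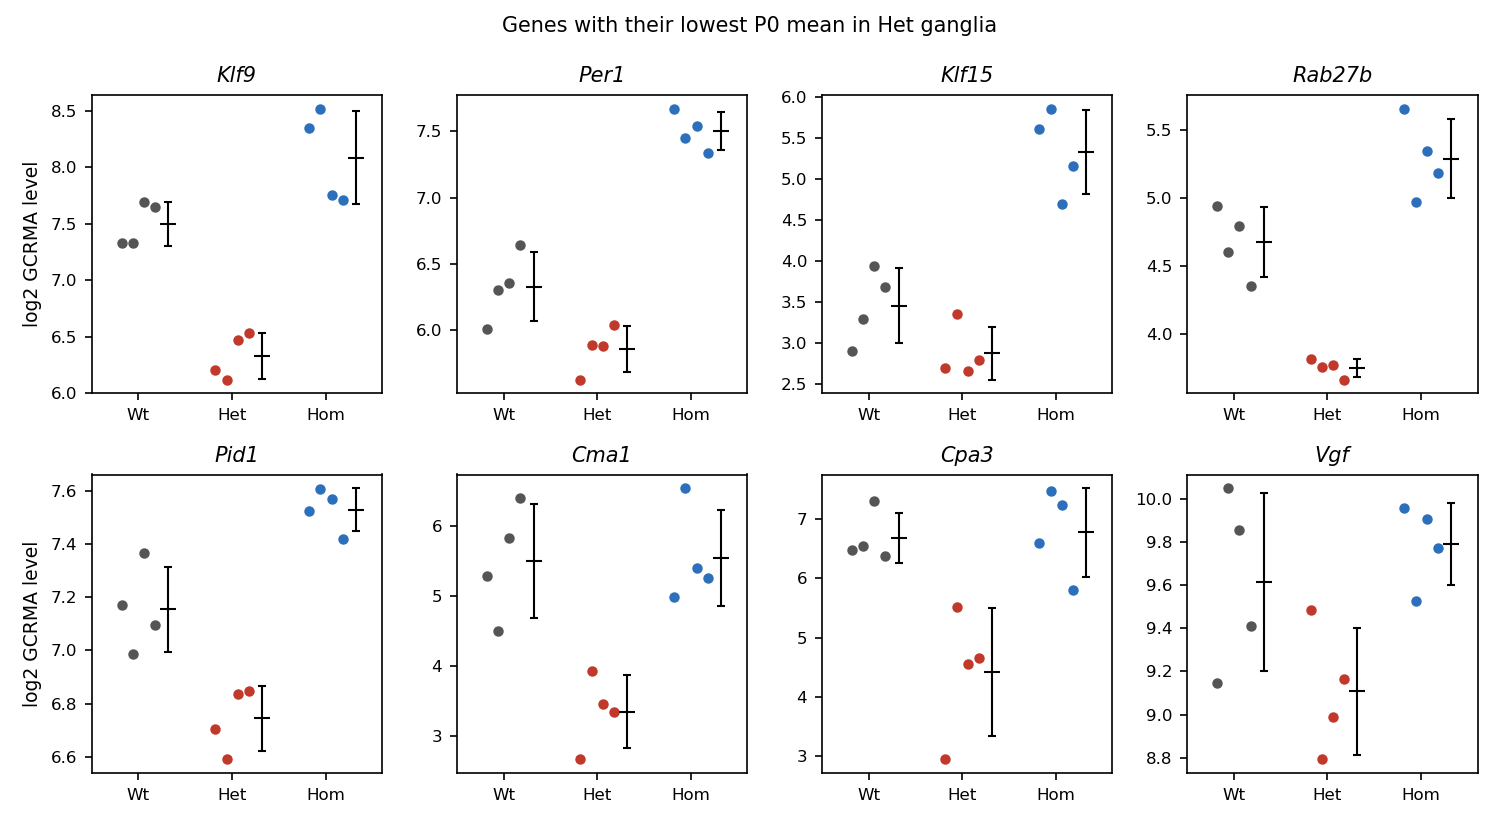
Log2 GCRMA level of 8 genes with the lowest mean in Het, 1 point per P0 array (4 per genotype), with the mean and SD beside each group. Axes do not start at 0 and differ by gene. Klf9, Rab27b, Pid1 and Cma1 were called and their Het arrays lie below all others, Per1 and Klf15 were called with Het and Wt overlapping, and Cpa3 (adjusted p = 0.0543) and Vgf (adjusted p = 0.136) were not called.

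Rab27b, a small GTPase that brings secretory vesicles to the plasma membrane, read 3.82, 3.76, 3.77 and 3.66 in Het, 4.94, 4.60, 4.80 and 4.35 in Wt and 5.66, 4.97, 5.35 and 5.18 in Hom. The 3 genotypes did not overlap at any array, and Het was 1.23 ± 0.15 below the midpoint (difference -1.23, adjusted p = 0.00432), with all Het arrays under the log2 limit of 4. Sytl4, a granuphilin that binds Rab27 proteins on such vesicles, was also called, in the other direction and in another form: Het (10.90 ± 0.10) and Hom (10.88 ± 0.24) overlapped and lay far above Wt (8.63 ± 0.25). Its difference from the midpoint was 1.15 ± 0.12 (adjusted p = 0.00253). Pid1, an adaptor with a phosphotyrosine interaction domain, had means of 6.74 ± 0.12 in Het, 7.16 ± 0.16 in Wt and 7.53 ± 0.08 in Hom (-0.60 ± 0.09, adjusted p = 0.0322).

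Cma1 encodes a chymase stored in mast cell granules and Cpa3 the carboxypeptidase stored beside it. Cma1 read 2.67, 3.93, 3.46 and 3.34 in Het, 5.28, 4.50, 5.83 and 6.39 in Wt and 4.99, 6.54, 5.40 and 5.25 in Hom, with no Het array reaching another genotype (-2.17 ± 0.37, 4.50-fold, adjusted p = 0.0472), and it was called in 4 of the 12 fits that left out 1 array. Cpa3 had the same order, at 2.94, 5.52, 4.55 and 4.65 in Het against 6.39 to 7.32 in Wt and 5.80 to 7.48 in Hom, and was not called (-2.32 ± 0.43, adjusted p = 0.0543). Of a list of 12 mast cell genes added after the values were seen, 3 passed the level filter, and the third, the granule proteoglycan Srgn, was 0.63 under the midpoint (a difference of -0.63 ± 0.24, adjusted p = 0.223). At P18 Cma1 and Cpa3 were between 1.94 and 2.09 in all 5 arrays.

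For the 9 genes in which only the difference from Wt was called, Hom mostly sat beside Het. Cartpt, which encodes the CART neuropeptide, had the smallest p of the whole contrast. It read 12.30, 12.23, 12.69 and 12.41 in Het, 12.21, 12.52, 12.20 and 12.52 in Hom and 8.72, 9.25, 9.47 and 8.86 in Wt, so that 1 mutated allele and 2 gave overlapping levels (1.69 ± 0.14, adjusted p = 0.000444). Slc38a4, an amino acid transporter, had means of 7.93 ± 0.12 in Het, 8.19 ± 0.28 in Hom and 5.55 ± 0.27 in Wt (1.06 ± 0.14, adjusted p = 0.00729). Rrm2, the small subunit of ribonucleotide reductase, Ect2, the exchange factor that starts cytokinesis, and Rnd3, an atypical small GTPase, completed the class with differences of 0.68, 0.79 and 0.94 (adjusted p = 0.0495, 0.0495 and 0.0440).

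In 9 genes only the difference from Hom was called, and Het stayed near Wt or beyond it. Hmx1, a homeobox factor of sympathetic neurons, read 10.51, 10.80, 10.62 and 10.60 in Het, 10.73 or more in every Wt array (mean 10.89 ± 0.12, SD) and 8.90, 9.31, 8.98 and 8.86 in Hom. The Hom arrays were all lower by more than 1 unit, with Het and Wt overlapping (0.68 ± 0.09, adjusted p = 0.0109). Mcf2, a guanine nucleotide exchange factor, had the same form with means of 7.65, 7.88 and 6.00 in Het, Wt and Hom (0.72 ± 0.13, adjusted p = 0.0495). In the opposite direction, the zinc transporter Slc39a11 and the ubiquitin-conjugating enzyme relative Ube2ql1 had Hom means of 7.63 and 8.79 against Het means of 6.60 and 7.63 and Wt means of 6.87 and 7.81 (-0.65 and -0.67, adjusted p = 0.0495 for each). Smarce1, a subunit of the BAF chromatin remodelling complex, and Mterf1a, a mitochondrial transcription terminator, were higher in Het (0.45 ± 0.08 and 1.22 ± 0.21, adjusted p = 0.0495 for each), and Mterf1a has a near-identical copy whose signal the probes may not separate. Slc39a11, Ube2ql1, Smarce1, Mterf1a, Rnd3 and Sytl4 lay outside the naming rule and are given because every called gene is named here.

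Genes on the low side that were not called included several of this last form. Slc10a6, a transporter of steroid sulfates, was at 2.46 to 2.58 in Het and 2.43 to 3.11 in Wt, with Hom at 4.18 to 4.79 (adjusted p = 0.0543), and it passed the level filter only through its Hom arrays. Hs3st2, a heparan sulfate sulfotransferase, and Clstn2, a synaptic calsyntenin, had Hom means of 7.76 and 5.44 over Het means of 5.24 and 3.53 and Wt means of 4.91 and 3.37 (adjusted p = 0.0593 and 0.0612), and Clstn2 likewise passed the filter only through Hom. Antxr2, an anthrax toxin receptor of the cell surface, was at 8.01 in Het and in Hom and 9.12 in Wt (adjusted p = 0.0635). Trnp1, Sqor and Tshz2 had their lowest means in Het (9.43, 5.26 and 6.43) with adjusted p of 0.0577, 0.0599 and 0.0657.

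Many of the cell division genes tested lay on the high side, though few of them were called. Of 47 mitosis genes tested 2 were called (Spc24 and Ect2, where 0.165% of all genes were called higher), 31 were higher in Het at an unadjusted p under 0.05 (9.85% of all genes) and 0 lower, and 33 had their highest mean in Het (38.8% of all genes). The median difference was 0.56, beside 0.03 over all genes. The per-array median of the list, relative to the mean of the 12 arrays, was 0.24 to 0.50 in Het, 0.20 to 0.43 in Hom and -1.18 to -0.29 in Wt, so Het and Hom overlapped and the distance was from Wt. The median difference of Het from Hom over the list was 0.08 and from Wt 0.99. Aurka, the centrosome kinase, had means of 5.13, 3.56 and 4.18 in Het, Wt and Hom (1.27 ± 0.32, adjusted p = 0.109), and its Het arrays overlapped Hom. Smc2, a condensin subunit, read 7.10 to 7.28 in Het, 6.08 to 6.59 in Wt and 5.60 to 7.09 in Hom (adjusted p = 0.128).

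DNA replication genes had the same direction, with 10 of 29 higher at an unadjusted p under 0.05 (9.85% of all genes), 0 lower, 1 called higher (Rrm2, beside 0.165% of all genes) and 23 with the highest mean in Het (38.8% of all genes). Their median difference was 0.34, and the per-array medians were 0.12 to 0.27 in Het, -0.01 to 0.23 in Hom and -0.35 to -0.17 in Wt. Rrm1, the large subunit of ribonucleotide reductase, had means of 7.27, 6.71 and 6.93 in Het, Wt and Hom (0.45, adjusted p = 0.0871). At P18 the medians of the Het minus Wt difference were -0.04 for mitosis and -0.05 for replication genes. The called members Spc24, Ect2 and Rrm2 were then at 2.19 to 2.56, 2.78 to 3.13 and 3.02 to 3.47. At such levels, under the log2 limit of 4, a difference near 0 does not show that the genotypes are alike.

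Ribosome biogenesis genes were farther from Hom (median Het minus Hom difference 0.39) than from Wt (0.14). None of 22 was called, 8 were higher in Het at an unadjusted p under 0.05 (9.85% of all genes) and 0 lower, and 17 had their highest mean in Het (38.8% of all genes), with a median difference of 0.28. The per-array medians were 0.16 to 0.20 in Het, -0.10 to 0.17 in Wt and -0.35 to -0.15 in Hom. Ftsj3, a ribosomal RNA processing methyltransferase, read 7.13, 7.41, 7.62 and 7.66 in Het, 7.28, 6.85, 6.07 and 6.94 in Wt and 5.38, 5.66, 6.37 and 5.83 in Hom (1.16 ± 0.23, adjusted p = 0.0612). Polr1b, a subunit of RNA polymerase I, was at 5.97 to 6.68, 5.05 to 5.84 and 3.97 to 5.38 in Het, Wt and Hom, with no overlap of Het (1.11 ± 0.26, adjusted p = 0.0954). Splicing factors of the Srsf and Hnrnp families, a list added after the values were seen, had their highest mean in Het in 18 of 23 members, against the same 38.8%, with a median difference of 0.20 and none called. Of these, Srsf1 and Hnrnpab were nearest to the threshold (0.45 and 0.39, adjusted p = 0.0635 and 0.0543).

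Mycn, the oncogene that activates biosynthetic genes in neuroblasts, had its highest mean in Het and its lowest in Hom. The arrays read 9.39, 9.64, 9.60 and 9.42 in Het, 9.13, 9.39, 8.78 and 9.05 in Wt and 8.33, 9.04, 8.63 and 8.70 in Hom. Het met Wt at 1 array, and the difference from the midpoint (0.63 ± 0.13) was not called (adjusted p = 0.0740), while Het against Hom was (0.84, adjusted p = 0.0127). Vgf, a secreted neuropeptide precursor, had its lowest mean in Het (9.11 against 9.62 in Wt and 9.79 in Hom) and was not called (-0.60 ± 0.17, adjusted p = 0.136).

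Among noradrenergic genes, 10 of 18 had their highest mean in Het, beside 38.8% of all genes. Of these 18, 1 was called (Hmx1), 11 were higher at an unadjusted p under 0.05 (9.85% of all genes) and 0 lower, with a median difference of 0.27 and per-array medians of 0.13 to 0.24 in Het, -0.06 to 0.21 in Wt and -0.31 to -0.01 in Hom. Slc6a2, the noradrenaline transporter, read 9.87 to 10.10 in Het, 8.74 to 9.89 in Wt and 8.63 to 9.41 in Hom (0.74 ± 0.19, adjusted p = 0.109). Eya1, a co-activator of neuronal precursors, was at 11.15 to 11.31 in Het, 10.27 to 10.58 in Wt and 10.79 to 11.36 in Hom (0.44 ± 0.10, adjusted p = 0.0871). The enzymes Th and Dbh, which begin and end the path from tyrosine to noradrenaline, departed from the midpoint by 0.15 ± 0.12 and 0.08 ± 0.09, neither called. For Dbh, leaving out P0 Wt replicates 1 and 4 turned the sign. Chgb, a granin of the catecholamine granule, read 13.72 to 14.03 in Het, 13.17 to 13.57 in Wt and 12.84 to 13.59 in Hom (0.61 ± 0.13, adjusted p = 0.0765).

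Alk and Ret lay near the midpoint. Alk itself was at 9.23, 9.06, 9.12 and 9.12 in Het, 8.31, 8.39, 8.60 and 8.50 in Wt and 9.63, 9.17, 9.52 and 9.46 in Hom, with Het above all Wt arrays. Its departure from the midpoint was 0.19 ± 0.09 (adjusted p = 0.328). Ret, the GDNF receptor kinase, had means of 9.23 ± 0.21 in Wt, 10.09 ± 0.17 in Het and 11.18 ± 0.58 in Hom (-0.12 ± 0.20, adjusted p = 0.786). A difference that was not called does not show that a gene lies at the midpoint. The neuropeptides Vip and Npy varied more among Wt arrays, which spread from 7.73 to 12.19 and from 10.75 to 12.52. Their departures were 0.99 ± 0.70 and -0.90 ± 0.31 (adjusted p = 0.481 and 0.187). Every Npy array of Het (8.92 to 9.16) and Hom (7.75 to 9.20) lay below every Wt array. The Npy difference from Wt was -2.48 in Het and -3.17 in Hom (adjusted p = 0.00523 and 0.000202, limma).

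**Figure D4:**
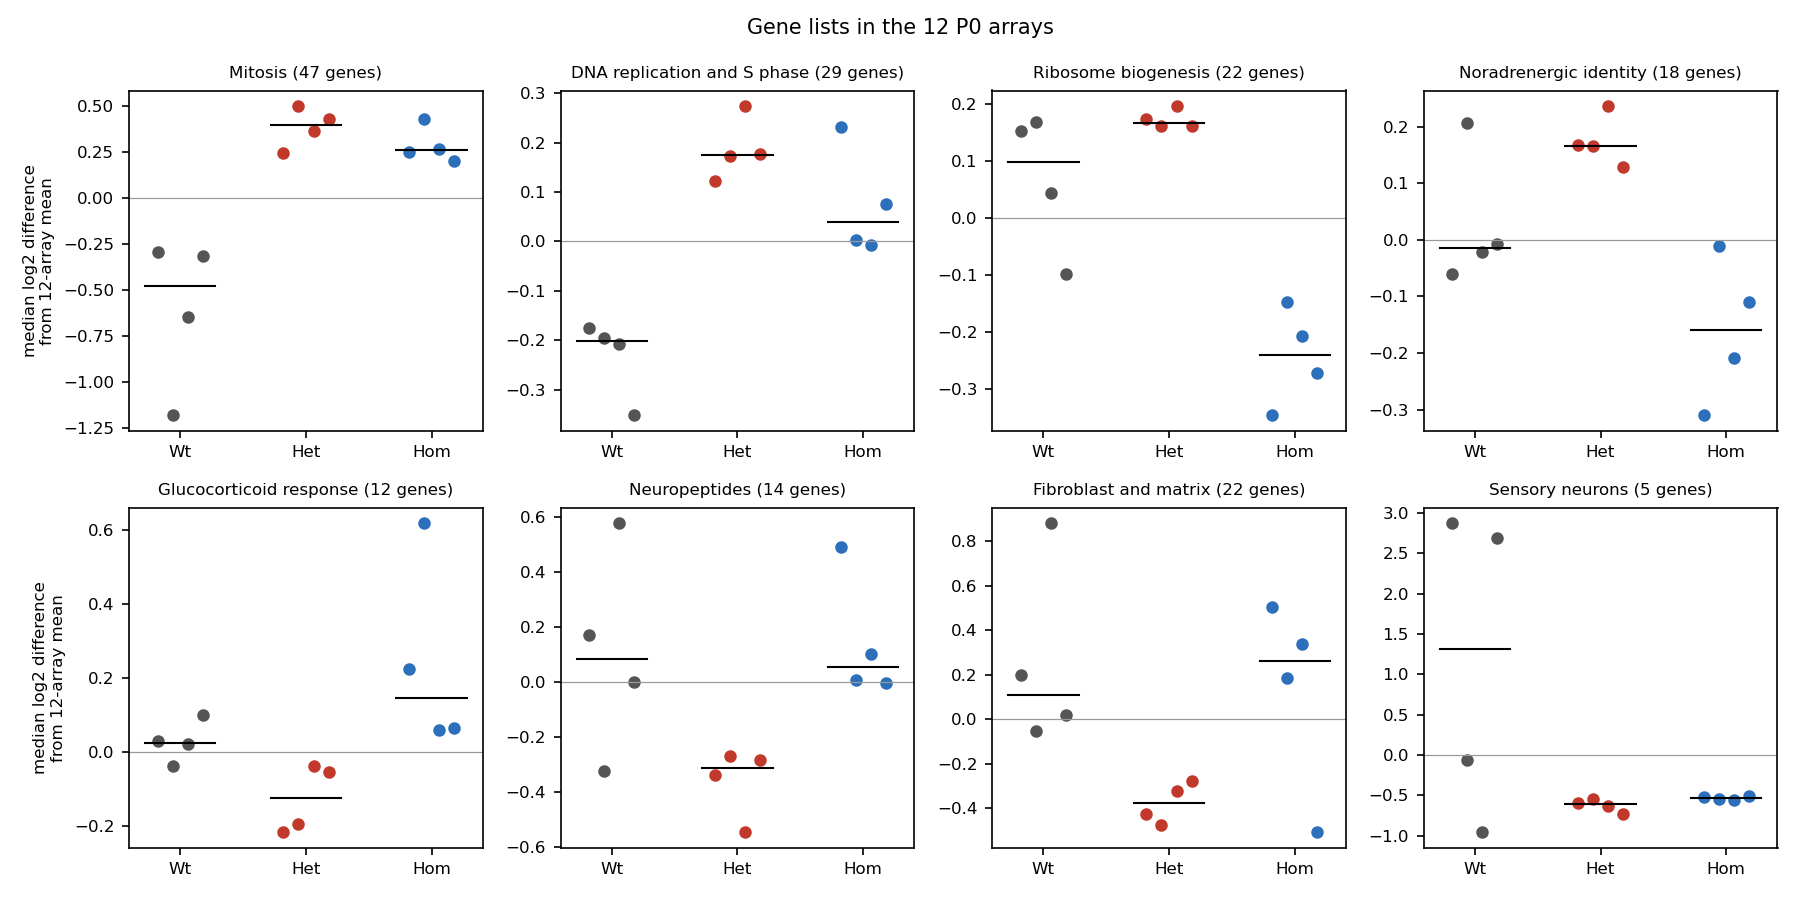
Median over each list of the log2 difference from the mean of the 12 P0 arrays, 1 point per array, with a line at the median of each genotype. Mitosis genes are at 0.24 to 0.50 in Het and 0.20 to 0.43 in Hom, ribosome biogenesis genes at 0.16 to 0.20 in Het and -0.35 to -0.15 in Hom, and fibroblast genes at -0.48 to -0.28 in Het with 1 Hom array at -0.51. Vertical axes differ by panel.

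Some lists of markers of the tissue around the neurons also had low levels in Het, and their part in the results above was not tested beyond the covariates below. Of 22 fibroblast and matrix genes none was called, 11 were lower in Het at an unadjusted p under 0.05 (7.28% of all genes) and 0 higher, and 21 had their lowest mean in Het (28.4% of all genes), with a median difference of -0.69. The per-array medians were -0.48 to -0.28 in Het, -0.05 to 0.88 in Wt and -0.51 to 0.50 in Hom, so only 1 Hom array was as low as Het. Col6a1, a collagen VI chain, read 8.42 to 8.75 in Het, 8.97 to 10.75 in Wt and 9.25 to 9.98 in Hom, and Ogn, the matrix protein osteoglycin, 8.28 to 8.77, 9.44 to 9.93 and 8.62 to 9.34 (adjusted p = 0.111 and 0.0657). Muscle, fat and endothelial lists had their lowest means in Het in 14 of 17, 5 of 6 and 8 of 11 genes, with median differences of -1.28, -1.49 and -0.32 and none called, where 28.4% of all genes had their lowest mean in Het. At an unadjusted p under 0.05, 0, 1 and 1 of these genes were lower in Het (7.28% of all genes). For fat, Het arrays ran from -2.39 to 0.43, and Hom replicates 9 to 12 were at -2.54, 3.83, -0.57 and -1.85. Macrophage and leukocyte genes had their lowest mean in Het in 4 of 13 and mural cell genes in 3 of 10. Their median differences from the midpoint were -0.21 and -0.40. Their median Het minus Hom differences were 0.16 and 0.07, so the distance was from Wt. Schwann and satellite glia genes had their lowest mean in Het in 7 of 11, with a median difference of -0.28 and none called. At an unadjusted p under 0.05, 4 of them were lower in Het (7.28% of all genes) and 1 higher (9.85%). Their per-array medians were -0.52 to -0.19 in Het, -0.38 to -0.02 in Hom and -0.42 to 1.16 in Wt, the highest in Wt replicate 3. For muscle, Het arrays ran from -2.95 to 1.37 and Wt from -2.95 to 3.83. Sensory neuron genes were at 2.87 and 2.69 in Wt replicates 1 and 4 and at -0.96 to -0.06 in the remaining Wt arrays, beside -0.73 to -0.55 in Het. Sex-linked genes split each genotype into 2 arrays above 1 and 2 below -1.

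When the fibroblast median of each array was added as a covariate, an alternative chosen after seeing the data, only 3 genes were called, 2 of which were among the 24 (Cartpt and Rrm2). The third, the pseudogene Npm3-ps1, had a difference of 1.64 without the covariate (adjusted p = 0.190). The estimates of Klf9, Gpc2 and Stk26 were -1.22, 0.95 and 1.32 with that covariate, each at an adjusted p of 0.0973, and that of Cma1 was -2.02 (adjusted p = 0.187). Of the mitosis genes, 21 were higher at an unadjusted p under 0.05 in that fit and 8 of the ribosome biogenesis genes, against 7.25% of all genes. In the same fit, noradrenergic genes higher at this p went from 11 to 4 of 18. Glucocorticoid response genes lower at this p went from 5 to 2 of 12 (5.48% of all genes were lower). The median differences of these lists moved less, from 0.27 to 0.21 for noradrenergic and from -0.29 to -0.27 for glucocorticoid response genes. The neuropeptide median went from -0.38 to 0.007. With muscle, fat and glia medians as covariates 25 genes were called, 12 of them among the 24, with 9 higher and 16 lower in Het, against 16 higher and 8 lower without these covariates.

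At P18 only Wt and Het arrays were compared, so these values are a Het minus Wt difference and not a departure from a midpoint. In the fit of all 17 arrays 26 of 9973 genes were called (0.261%), 21 higher in Het (0.211%) and 5 lower (0.0501%), with 778 at an unadjusted p under 0.05 (7.8%). Among the 24, Cartpt (2.73 ± 0.24, adjusted p = 5.20e-05), Sytl4 (2.11 ± 0.41, adjusted p = 0.0401) and Stk26 (1.45 ± 0.24, adjusted p = 0.0193) were called, and all 3 were higher in Het. Stk26 read 5.31 and 5.56 in the Het arrays and 3.84, 4.02 and 4.10 in Wt, without overlap. Gpc2 was at 3.87 and 3.86 in Het and 3.19 to 4.22 in Wt at P18, 0.01 ± 0.26 apart. These levels lie near or under the log2 limit of 4, where a difference may not be seen. Klf9 was at 9.87 and 9.97 in Het and 9.40 to 9.53 in Wt, 0.47 ± 0.22 higher in Het and not called (adjusted p = 0.621). The change of its Het minus Wt difference from P0 to P18 was 1.64 (adjusted p = 0.0333, limma), 1 of 14 genes called for such a change (0.14%). Klf9 was picked by P0 values that also enter this change, so the change is no separate test of them.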

How the data were processed

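RNA of 17 samples of sympathetic ganglia was hybridised to Affymetrix arrays, and the deposited values are log2 expression levels made by the authors with GCRMA and the gene annotation of Brainarray (no versions given), 1 value per gene and array, not pooled over replicates. Joint normalization of the arrays is not given in the sources used here. The number of arrays limits the precision. Of the 17306 probe sets, 16464 carried 1 symbol and 842 none in the platform table, updated by Entrez ID through RefSeq. Among the 9675 tested, 418 had no name.

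The 12 P0 arrays were fitted with limma 3.58.1 under R 4.3.3, using a mean for each genotype and eBayes (trend and robust), two-sided, and Benjamini-Hochberg adjustment over all genes kept. The fit for P18 used all 17 arrays in 5 groups. Differences are given ± SE of the fit and means ± SD (n = 4). Named genes were up to 12 per direction among called genes with Het arrays apart from all others, filled with the lowest p-values, up to 4 per direction of called genes with Het between, up to 4 called members per direction of each of 48 lists, and 8 genes whatever their values. The lists, the rule and the contrast were chosen with earlier results of these data known. Of 971 list names 848 had a probe set. The lists described are some of those with a shift or with markers of other cells, beside the clock list. Lists with like medians were left out, among them ERK and ETS response (-0.29) and interferon response (0.31). Of the first, 3 of 7 genes were lower in Het at an unadjusted p under 0.05 (7.28% of all genes). Of the second, 2 of 11 were higher (9.85% of all genes). The fits were tested on simulated data with the same spread in every genotype. That test therefore does not cover the unequal spread of the real groups. Alternatives changed the filter, moderation, normalization, weights, covariates, thresholds and arrays.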

Additional observations from a re-analysis of the deposited data

Results flagged for a closer look

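In 3 genes named in the report 1 array stood apart from the other 3 of its group, a distance that chance gives in about 1 in 20 groups. Every called gene and every gene of the naming rule was checked in each genotype. Chance alone would therefore give several such groups, and these 3 are given as values only. Adgrb3 was at 10.82 in P0 Wt replicate 3, with the other Wt arrays all at 11.16. Adcy6 was at 9.31 in P0 Wt replicate 1, with the others at 8.82 to 8.87, and Ret was at 10.31 in P0 Hom replicate 10, with the others at 11.44 to 11.50.

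For 5 named genes the Het minus Wt difference changed between P0 and P18 in the fit of all 17 arrays. Over all genes, 14 of 9973 were called for such a change (0.14%). These 5 were picked by P0 values that also enter the change, so a smaller or turned difference at P18 can follow from the picking alone. Stage and handling batch cannot be told apart in this change. Slc38a4 changed by -2.47 (adjusted p = 0.000533, limma), from 2.38 at P0 to -0.09 at P18, where all 5 arrays were between 2.28 and 2.62. Ect2 changed by -1.37 (adjusted p = 0.0468) and Shcbp1 by -1.02 (adjusted p = 0.0440), and both had P18 differences near 0 (-0.19 and -0.04). The P18 levels of Ect2, 2.78 to 3.13, were also under that limit. Klf9 changed by 1.64 (adjusted p = 0.0333), from -1.17 to 0.47. Antxr2 changed by 1.40 (adjusted p = 0.00439), from -1.11 to 0.29.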

How the results depend on the processing

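The count of 24 genes departing from the midpoint depended on the setting more than the estimates did. It was 11 with no filter on low values, 13 without moderation of the spread, 12 with a fold limit of 1 log2 unit, 191 in the fit of all 17 arrays, 379 with weights by group and 1764 with weights by array. It was 113 without P0 Wt replicates 1 and 4, 955 without P0 Wt replicate 3 and P0 Hom replicates 10 and 12, 142 at an adjusted p under 0.1, and 3 with the fibroblast covariate, the last 2 chosen after seeing the data. Leaving out 1 array gave 7 to 110 genes: 110 without Hom replicate 10, 64 without Hom replicate 12, 11 without Het replicate 5, 7 without Het replicate 6, 8 without Het replicate 7 or 8, 11 without Hom replicate 9 and 12 without Hom replicate 11. The cause was not tested. The rule of Het beyond both gave 0 to 1 gene on leaving out 1 array (Gpc2 without Wt replicate 2), 1 in the fit of all 17 arrays (Klf9), 4 with weights by array and 1 with the fibroblast covariate (Npm3-ps1). Het against Wt at P18 gave 26 genes, 56 with no filter, 39 with plain eBayes and 5 to 29 on leaving out 1 array, with 9 without P18 Wt replicate 1 and 5 without P18 Het replicate 4 or 5. Cartpt was called in all 27 alternatives run for it. Stk26, Gpc2, Klf9, Rab27b, Per1 and Sytl4 were called in 26 of 27, each lost with the fibroblast covariate. The other 17 called genes passed in 12 to 25 of 27, among them Mcf2 in 12, Oprl1, Psd2, Ect2 and Rrm2 in 13 and Cma1 in 14. Of the genes run through these alternatives Dbh alone changed sign, to -0.027 without P0 Wt replicates 1 and 4. Genes given only as list members, such as Nfkbia, Aurka and Chgb, were not run through them. No paired analysis was possible because the P0 genotypes share no replicate numbers. Values under a log2 level of 4 limit the size of the differences of Klf15, Rab27b, Cma1, Spc24 and Mterf1a. At P18 such values also limit those of Slc38a4, Ect2, Rrm2, Gpc2 and Cpa3.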
